A study of Homo sapiens with 12 samples.

Results

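HMOX1 and the genes that handle heme and iron were followed across 12 microarrays of SZ95 sebocytes, an immortalised human sebaceous gland cell line. The 10 genes were HMOX1, HMOX2, BLVRA, BLVRB, FTH1, FTL, TFRC, SLC40A1, SLC48A1 and ABCB6. A gene was taken where the probe annotation of a probe set gave its symbol and no other, and 9 of the 10 were measured in this way, out of 18417 genes tested in all. FTH1, the heavy chain of ferritin, was not analysed here because no entry carried it as the only symbol. Each of the 9 genes had 1 probe set.

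Cells were lipofected with siRNA against OLR1, the lectin-like receptor for oxidised low density lipoprotein, or with a scramble siRNA. They were then left untreated or given UVPAPC, the phospholipid PAPC oxidised by ultraviolet light, at 25 µg/ml, starting 24 h after transfection. The 4 groups of 3 arrays each were OLR1 siRNA with UVPAPC, OLR1 siRNA untreated, scramble siRNA with UVPAPC and scramble siRNA untreated. All 4 groups had been transfected with an siRNA. The labels describe no vehicle, unoxidised PAPC or untransfected group, so an effect of the lipid itself cannot be told apart from one of its oxidation. The labels do not say whether the 3 arrays of a group were separate cultures. The p-values then measure how these samples scatter, which may be technical.

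Heme oxygenases open the heme ring and release iron, carbon monoxide and biliverdin, which biliverdin reductases turn into bilirubin. Ferritin stores the iron set free, the transferrin receptor brings iron in and ferroportin lets it out. HMOX1 and the ferritin genes are textbook targets of the transcription factor NRF2 and of its heme-sensing counterpart BACH1, while ferritin and transferrin receptor mRNAs are also controlled through iron-responsive elements.

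UVPAPC raised HMOX1 7.67-fold in OLR1 siRNA cells and 7.99-fold in scramble cells, and FTL 1.79-fold and 1.51-fold. OLR1 siRNA lowered BLVRA 1.63-fold in UVPAPC cells and 1.72-fold in untreated cells. It also lowered FTL 1.21-fold in untreated cells and raised TFRC 1.25-fold in UVPAPC cells. HMOX2, BLVRB, SLC40A1, SLC48A1 and ABCB6 passed the threshold in none of these 4 comparisons by limma, whose unadjusted p was under 0.05 for HMOX2 in 3 of them and for BLVRB and ABCB6 in 1 each. The values are log2 signals per probe set, a fold change is the difference of 2 group means on that scale, and the threshold is an adjusted p of 0.05 from limma over all 18417 genes.

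OLR1 itself was dim, at percentile 30.1 of all genes by mean signal over the 12 arrays, and lower in all knockdown arrays than in all scramble arrays. Its log2 signal was 4.47, 4.33 and 4.41 with OLR1 siRNA and UVPAPC and 4.66, 4.38 and 4.48 with OLR1 siRNA alone. It was 6.19, 5.49 and 5.74 with scramble siRNA and UVPAPC and 6.18, 5.56 and 5.35 with scramble siRNA alone. OLR1 siRNA lowered it by a log2 change of -1.40 in UVPAPC cells and -1.19 in untreated cells (limma adjusted p = 0.000162 and 0.000484), with no overlap between groups. Array medians ran from 5.73 to 5.83. The root mean square deviation of an array from its group mean, over all genes, was largest for scramble UVPAPC array 3, at 0.110. It was smallest for scramble UVPAPC array 1, at 0.0833. By percentile of mean signal over genes, the 11 measured sebocyte markers ran from 14.8 for AWAT2 and 17.1 for MC5R, through 79.4 for PPARG, 79.7 for FASN and 98.0 for SCD, to 99.5 for KRT19. The markers of other cells ran from 15.7 for SLC4A1 to 57.9 for KLF1 (erythroid), from 3.86 for PTPRC to 94.6 for CD68 (macrophage and leukocyte), from 1.96 for DCN to 64.1 for COL1A1 (fibroblast), from 14.9 for PECAM1 to 80.8 for CDH5 (endothelial) and from 5.88 for MLANA to 83.7 for MITF (melanocyte).

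HMOX1 is the inducible heme oxygenase. Its log2 signal was 12.74, 12.70 and 12.73 in OLR1 siRNA cells with UVPAPC, against 9.84, 9.50 and 10.01 in untreated OLR1 siRNA cells. In scramble cells it was 12.52, 12.60 and 12.46 with UVPAPC, against 9.42, 9.54 and 9.62 without. Every UVPAPC array lay far above every untreated array, and the 2 groups given UVPAPC were tighter than their untreated counterparts. The log2 change on UVPAPC was 2.94 (SE 0.10, 95% interval 2.73 to 3.15, limma adjusted p = 2.07e-11) with OLR1 siRNA. With scramble siRNA it was 3.00 (SE 0.10, 95% interval 2.78 to 3.21, limma adjusted p = 3.05e-11). By the size of the rise HMOX1 was rank 3 of all genes with OLR1 siRNA and rank 2 with scramble siRNA. An array reads the RNA of a whole culture, in which fewer cells of a type and less RNA per cell cannot be told apart.

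The order of HMOX1 group means was OLR1 siRNA with UVPAPC at 12.73 ± 0.0186, scramble with UVPAPC at 12.53 ± 0.0675, OLR1 siRNA untreated at 9.79 ± 0.258 and scramble untreated at 9.53 ± 0.0993 (SD, n = 3 each). The 2 highest groups did not overlap but did not differ past the threshold, at a log2 difference of 0.20 for OLR1 siRNA over scramble (95% interval -0.02 to 0.41, limma adjusted p = 0.214). The 2 lowest groups overlapped, with a difference of 0.26 (95% interval 0.04 to 0.47, limma adjusted p = 0.13). That HMOX1 difference was 0.40 without OLR1 siRNA untreated array 2, where it passed (adjusted p = 0.00946), and 0.14 without array 3 of that group (adjusted p = 0.415). It also passed with a mean-variance trend (adjusted p = 0.0459), and in 2 of 23 alternative settings in all. The response to UVPAPC with OLR1 siRNA minus that with scramble siRNA was -0.06 (95% interval -0.36 to 0.24, limma adjusted p = 0.966). A difference in HMOX1 induction was not detected, within the bounds of that interval.

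**Figure D1:**
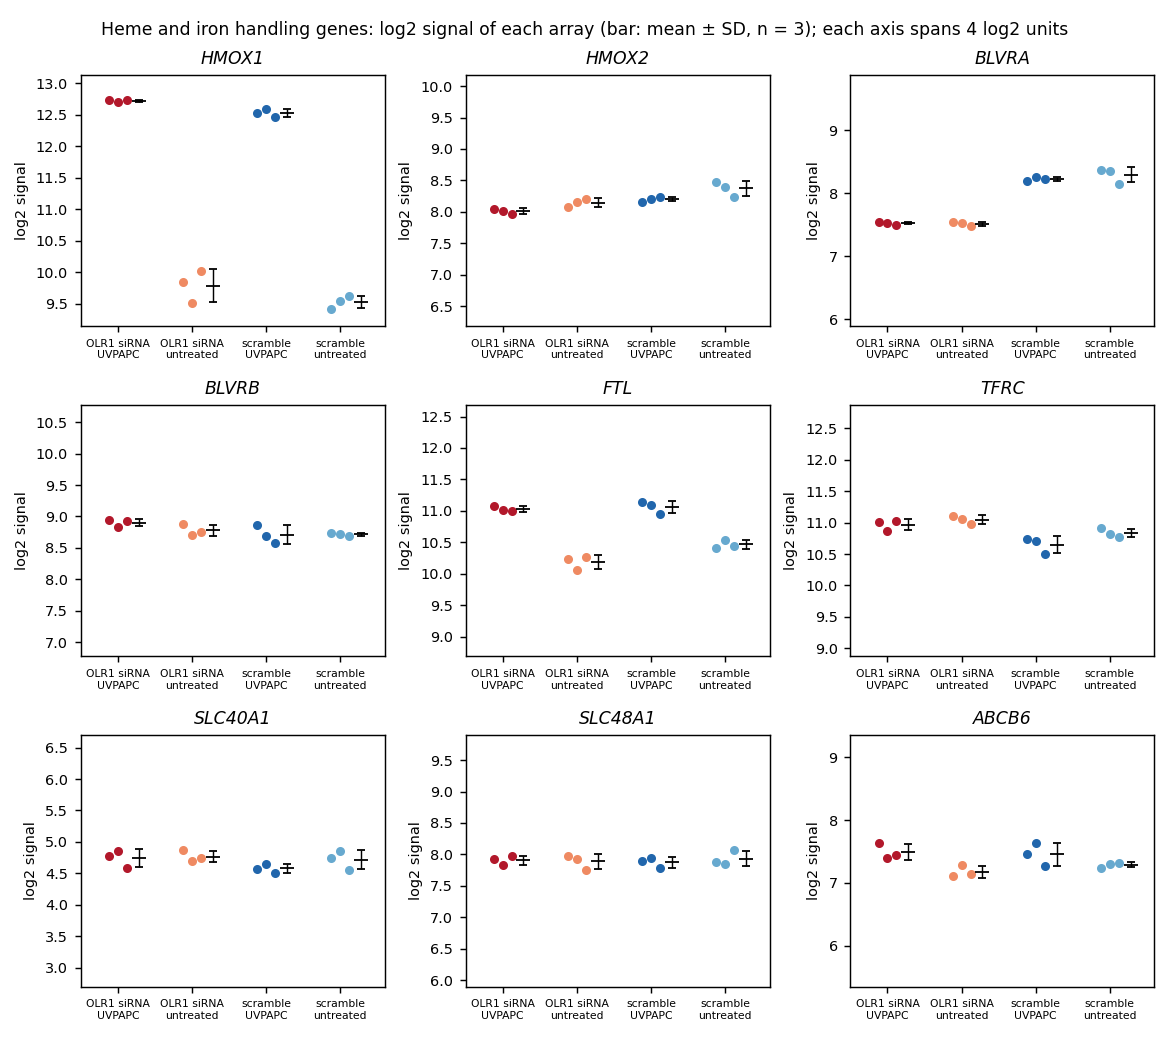
Log2 signal of the 9 measured heme and iron genes on each of the 12 arrays (vertical axis, log2 units), by group along the horizontal axis, with the mean and SD of 3 arrays. HMOX1 and FTL lie higher in both UVPAPC groups than in both untreated groups, and BLVRA lies lower in both OLR1 siRNA groups than in both scramble groups.

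HMOX2 is the constitutive heme oxygenase. Its log2 signal was 8.05, 8.02 and 7.96 in OLR1 siRNA cells with UVPAPC, against 8.07, 8.15 and 8.21 in untreated OLR1 siRNA cells. In scramble cells it was 8.17, 8.21 and 8.24 with UVPAPC, against 8.48, 8.40 and 8.24 without. The arrays were lower with UVPAPC under either siRNA, and lower with OLR1 siRNA under either treatment, without overlap, although the scramble groups met at 8.24 to 2 decimals. None of these differences passed the threshold. OLR1 siRNA gave a log2 difference of -0.19 in UVPAPC cells and -0.23 in untreated cells (limma adjusted p = 0.0887 and 0.0547). UVPAPC gave -0.13 in OLR1 siRNA cells and -0.17 in scramble cells (limma adjusted p = 0.341 and 0.186). The HMOX2 difference for OLR1 siRNA came past the threshold in 3 of 23 alternative settings in UVPAPC cells and in 6 of 23 in untreated cells.

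BLVRA, the biliverdin reductase of the main heme breakdown route, was lower with OLR1 siRNA under both treatments. Its log2 signal was 7.54, 7.53 and 7.50 in OLR1 siRNA cells with UVPAPC, against 8.19, 8.25 and 8.23 in scramble cells with UVPAPC. Without UVPAPC it was 7.54, 7.53 and 7.47 in OLR1 siRNA cells, against 8.38, 8.35 and 8.15 in scramble cells. The 6 OLR1 siRNA arrays formed 1 narrow band that lay below all scramble arrays. The log2 change on OLR1 siRNA was -0.70 in UVPAPC cells (SE 0.07, 95% interval -0.85 to -0.56, limma adjusted p = 1.25e-05) and -0.78 in untreated cells (SE 0.07, 95% interval -0.93 to -0.64, limma adjusted p = 3e-06). Counted from the most lowered gene, these were rank 33 and rank 55. UVPAPC gave a BLVRA difference of 0.01 with OLR1 siRNA (95% interval -0.13 to 0.16) and -0.07 with scramble siRNA (95% interval -0.22 to 0.08), with limma adjusted p = 0.961 and 0.663. Whether the siRNA lowered BLVRA by way of OLR1 was not tested, since the labels describe 1 OLR1 siRNA condition.

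BLVRB, the other biliverdin reductase, which also reduces flavins, passed the threshold in none of the 4 comparisons. Its log2 signal ran from 8.84 to 8.94 in OLR1 siRNA cells with UVPAPC, from 8.71 to 8.87 in untreated OLR1 siRNA cells, from 8.57 to 8.87 in scramble cells with UVPAPC and from 8.68 to 8.74 in untreated scramble cells. All pairs of groups compared overlapped. The largest of its 4 differences was 0.19 for OLR1 siRNA over scramble in UVPAPC cells (95% interval 0.03 to 0.36, limma adjusted p = 0.121). That BLVRB difference passed in 1 of 23 alternative settings, without scramble UVPAPC array 1 (0.27, adjusted p = 0.0438).

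FTL encodes the light chain of ferritin, the iron store of the cell. FTL has many near-identical processed copies in the genome, so its probe signal may be shared with them and is uncertain to that extent. The start of its transcript is shown because ferritin mRNA carries an iron-responsive element there. Both stretches are from RefSeq on GRCh38.p14, on the plus strand, 5′ to 3′, and the capitals mark the letters CAGTGN, the loop of such elements.
FTL, chr19:48965059-48965308, the 250 bases before the start: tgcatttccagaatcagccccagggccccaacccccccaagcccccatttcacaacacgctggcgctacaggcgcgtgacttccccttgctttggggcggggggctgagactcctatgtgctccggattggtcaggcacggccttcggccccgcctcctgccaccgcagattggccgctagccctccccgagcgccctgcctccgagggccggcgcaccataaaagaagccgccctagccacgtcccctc
FTL, chr19:48965329-48965358, within the first 50 bases after the start: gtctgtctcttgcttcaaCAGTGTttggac
CAGTGN was searched on the gene's own strand in the 50 bases after each start, and 6.38% of 34796 RefSeq windows hold it. The 250 bases before the FTL start hold neither TGANNNNGC, the core of the antioxidant response element, nor CACGTG, the E-box, on either strand. The first was present in 35.1% and the second in 6.31% of all windows. No match says only that these letters are not in this window.

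The log2 signal of FTL was 11.08, 11.01 and 10.99 in OLR1 siRNA cells with UVPAPC, against 10.23, 10.07 and 10.27 in untreated OLR1 siRNA cells. In scramble cells it was 11.14, 11.10 and 10.95 with UVPAPC, against 10.42, 10.54 and 10.44 without. Every UVPAPC array lay above every untreated array, and the 2 UVPAPC groups overlapped. The log2 change on UVPAPC was 0.84 with OLR1 siRNA (SE 0.08, 95% interval 0.68 to 1.00, limma adjusted p = 3.21e-06) and 0.60 with scramble siRNA (SE 0.08, 95% interval 0.44 to 0.76, limma adjusted p = 0.000103). By the size of the rise FTL was rank 44 with OLR1 siRNA and rank 83 with scramble siRNA.

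FTL group means had the order scramble with UVPAPC at 11.06 ± 0.0991, OLR1 siRNA with UVPAPC at 11.03 ± 0.0493, scramble untreated at 10.47 ± 0.0656 and OLR1 siRNA untreated at 10.19 ± 0.109 (SD, n = 3 each). The highest neighbours did not differ beyond their spread, at -0.03 for OLR1 siRNA against scramble (limma adjusted p = 0.811). The lowest did not overlap, and OLR1 siRNA lowered FTL in untreated cells by a log2 change of -0.28 (95% interval -0.43 to -0.12, limma adjusted p = 0.0288). That FTL call was lost without OLR1 siRNA untreated array 1 (-0.30, adjusted p = 0.0543) or 2 (-0.21, adjusted p = 0.144), and without scramble untreated array 2 (-0.24, adjusted p = 0.125) or 3 (-0.29, adjusted p = 0.0663). It was also lost over all table entries (adjusted p = 0.0584). The UVPAPC response of FTL was larger with OLR1 siRNA by 0.24 (95% interval 0.02 to 0.47, unadjusted p = 0.0372), and this did not pass over all genes (limma adjusted p = 0.904).

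TFRC, the transferrin receptor that takes up iron-loaded transferrin, had its highest group means in OLR1 siRNA cells. Its log2 signal was 11.01, 10.87 and 11.02 in OLR1 siRNA cells with UVPAPC, against 10.74, 10.71 and 10.49 in scramble cells with UVPAPC. Without UVPAPC it was 11.11, 11.05 and 10.98 in OLR1 siRNA cells, against 10.91, 10.82 and 10.78 in scramble cells. OLR1 siRNA arrays lay above scramble arrays under both treatments. OLR1 siRNA raised TFRC in UVPAPC cells by 0.32 (SE 0.08, 95% interval 0.15 to 0.48, limma adjusted p = 0.0144), and in untreated cells the difference was 0.21 (95% interval 0.04 to 0.38, limma adjusted p = 0.108), past the threshold in 2 of 23 alternative settings. The TFRC call was lost without scramble UVPAPC array 3 (0.24, adjusted p = 0.0676), OLR1 siRNA UVPAPC array 1 (0.30, adjusted p = 0.0591) or OLR1 siRNA UVPAPC array 3 (0.29, adjusted p = 0.0585). Cyclic loess scaling brought the TFRC change down to 0.20 (adjusted p = 0.0484). UVPAPC gave -0.08 with OLR1 siRNA and -0.19 with scramble siRNA (limma adjusted p = 0.655 and 0.183).

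SLC40A1, or ferroportin, exports iron from the cell. Its log2 signal ran from 4.51 to 4.86 over the 12 arrays, at percentile 24.4 of all genes by mean signal, where a change may be hard to read. All group pairs overlapped, and its differences ran from -0.14 for UVPAPC over untreated in scramble cells (limma adjusted p = 0.449) to 0.16 for OLR1 siRNA over scramble in UVPAPC cells (limma adjusted p = 0.243). SLC48A1, which carries heme out of endosomes and lysosomes, kept within 7.76 to 7.98 in OLR1 siRNA arrays and 7.78 to 8.06 in scramble arrays. Its groups overlapped in every comparison, with differences between -0.06 and 0.03.

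ABCB6 is a porphyrin transporter. Its log2 signal was 7.63, 7.39 and 7.45 in OLR1 siRNA cells with UVPAPC, against 7.10, 7.28 and 7.15 in untreated OLR1 siRNA cells. In scramble cells it was 7.46, 7.64 and 7.27 with UVPAPC, against 7.24, 7.30 and 7.32 without. UVPAPC arrays lay above untreated ones in OLR1 siRNA cells and overlapped them in scramble cells. The differences were 0.31 with OLR1 siRNA (95% interval 0.12 to 0.50, limma adjusted p = 0.0507) and 0.17 with scramble siRNA (limma adjusted p = 0.34), and the first came past the threshold in 10 of 23 alternative settings. The ABCB6 promoter is shown because, among the 8 of the 10 genes with a RefSeq promoter entry, its window is the one that holds TGANNNNGC. Of all windows 35.1% hold TGANNNNGC and 6.31% hold CACGTG, and whether either acts in ABCB6 was not tested. The capitals mark CACGTG and the TGANNNNGC that overlaps it, at 156 to 144 bases before the start.
ABCB6, chr2:219218959-219219208, GRCh38.p14, minus strand, the 250 bases before the start: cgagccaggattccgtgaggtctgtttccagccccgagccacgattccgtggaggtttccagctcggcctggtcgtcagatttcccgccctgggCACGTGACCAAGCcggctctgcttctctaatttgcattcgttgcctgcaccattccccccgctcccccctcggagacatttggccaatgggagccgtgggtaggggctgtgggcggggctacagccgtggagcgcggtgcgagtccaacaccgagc
The HMOX2 window also holds CACGTG, at 28 to 23 bases before its start. HMOX1 and FTH1 are named only.

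In OLR1 siRNA cells UVPAPC moved 2 of the 9 measured genes past the threshold, HMOX1 and FTL, both higher, where 6.71% of all genes passed, 3.46% higher and 3.25% lower. In scramble cells the same 2 genes rose, where 7.31% of all genes passed, 2.67% higher and 4.64% lower. OLR1 siRNA moved 2 of 9 in UVPAPC cells, BLVRA lower and TFRC higher, where 12.5% of all genes passed, 7.94% higher and 4.56% lower. These were 1462 genes higher and 840 lower, or 1914 and 620 with arrays centred on their medians. The excess of rises was smaller with repeated quantile scaling (1165 and 944) and after cyclic loess (1176 and 942). In untreated cells OLR1 siRNA moved 2 of 9, BLVRA and FTL, both lower, where 9.71% passed, 5.29% higher and 4.42% lower. The median log2 difference of the 9 genes was 0.02 and -0.06 for UVPAPC in OLR1 siRNA and scramble cells, and 0.03 and -0.04 for OLR1 siRNA in UVPAPC and untreated cells, against all-gene medians between -0.0134 and -0.00142. In each of these 4 comparisons 4 of the 9 genes had groups without overlap, against 23.7% of all genes for UVPAPC in OLR1 siRNA cells, 24.1% in scramble cells, 30.8% for OLR1 siRNA in UVPAPC cells and 28.7% in untreated cells. The comparisons share arrays, so their counts are not independent.

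**Figure D2:**
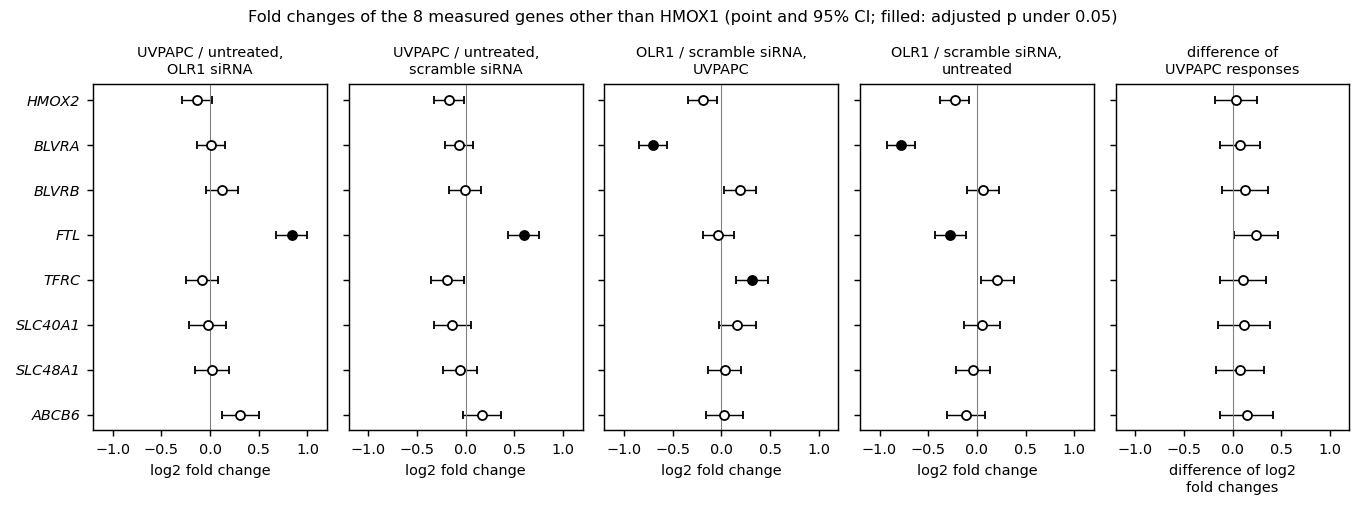
Log2 fold changes of the 8 measured heme and iron genes other than HMOX1 in the 4 comparisons and, at the right, the difference of the UVPAPC responses (log2 units), with 95% confidence intervals from limma and filled points where the adjusted p is under 0.05. FTL at 0.84 and 0.60 stands to the right for UVPAPC, and BLVRA at -0.70 and -0.78 stands to the left for OLR1 siRNA.

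The response to UVPAPC differed between the siRNAs past the threshold for 0 of the 9 genes. Of all genes 0.0% passed in limma, and 1004 genes, FTL among the 9, had an unadjusted p under 0.05. The count stayed at 0 in all 22 alternatives run on it. The interval of the difference was widest for HMOX1, at -0.36 to 0.24.

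The wider pathway was read on 65 of 73 other genes of heme and iron metabolism in 7 lists. The genes past the threshold on UVPAPC were mostly from the list of regulators that respond to heme or act with NRF2 or BACH1. Among all 65, 5 rose and 3 fell in OLR1 siRNA cells, with a median log2 difference of 0.02, and 4 rose and 2 fell in scramble cells, with a median of 0.01. These are 8 of 65 against 6.71% of all genes and 6 of 65 against 7.31%. Of the 9 measured genes in that list of regulators, 4 rose and 1 fell under each siRNA. The list is drawn as heme-responsive regulators, though not all of its genes respond to heme. MAFG, a small MAF partner of both NRF2 and BACH1, rose by 0.74 with OLR1 siRNA and 0.60 with scramble siRNA (limma adjusted p = 5.42e-06 and 4.52e-05), and by 0.40 with scramble siRNA when its probe sets were averaged. MAFF, another small MAF, rose by 0.40 and 0.37 (limma adjusted p = 0.0054 and 0.011). BACH1, a repressor of HMOX1 that heme inactivates, rose by 0.44 and 0.33 (limma adjusted p = 0.00244 and 0.0197). KEAP1, which targets NRF2 for degradation, rose by 0.26 and 0.29 (limma adjusted p = 0.0414 and 0.0197). NR1D1, a heme-binding nuclear receptor of the circadian clock, fell, with changes of -0.32 and -0.34 (limma adjusted p = 0.00675 and 0.00429).

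MAFG and NR1D1 under both siRNAs, and BACH1 and MAFF with OLR1 siRNA, kept their calls in all 23 alternative settings. With scramble siRNA the BACH1 call was lost without UVPAPC array 1 or 2 or untreated array 1 or 3 (0.27 to 0.32, adjusted p = 0.0586 to 0.0965), and over all table entries (adjusted p = 0.0521). The MAFF call there was lost without UVPAPC array 2 (0.28, adjusted p = 0.0534) or untreated array 1 (0.31, adjusted p = 0.0639). KEAP1 lost its calls most often of these 5 regulators. Its call with scramble siRNA was lost without UVPAPC array 1 or 3 or any untreated array (adjusted p = 0.05002 to 0.0703), and its call with OLR1 siRNA was lost in 9 of the 12 omissions of an array, all but scramble UVPAPC arrays 2 and 3 and OLR1 siRNA UVPAPC array 2. Its change was smallest without OLR1 siRNA UVPAPC array 3 (0.19, adjusted p = 0.181). The KEAP1 call with OLR1 siRNA was also lost over all table entries (adjusted p = 0.0743) and with the arrays of the comparison alone (adjusted p = 0.0991). NFE2L2, which encodes NRF2, was at -0.03 and -0.06 on UVPAPC (limma adjusted p = 0.841 and 0.675), and BACH2 at -0.01 and -0.10.

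**Figure D3:**
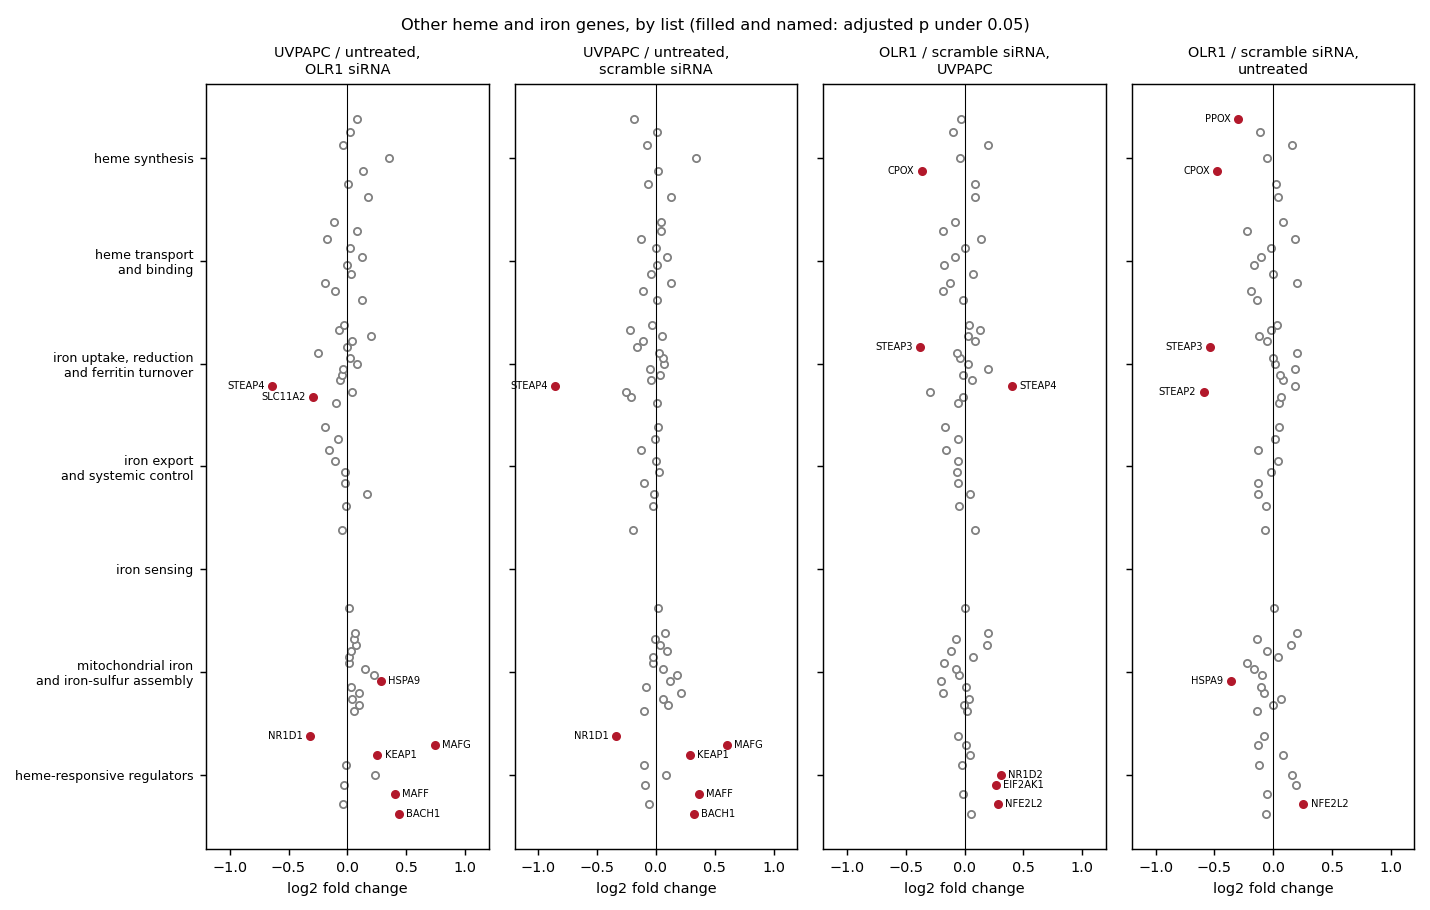
Log2 differences of the 65 measured pathway genes, 1 point a gene, by list and comparison (log2 units), with the genes past the adjusted p threshold of 0.05 marked. Regulators such as MAFG and MAFF rise with UVPAPC and STEAP4 is the lowest point in both UVPAPC comparisons.

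In the list for iron uptake, reduction and ferritin turnover, 2 of 15 genes fell on UVPAPC with OLR1 siRNA and 1 with scramble siRNA, and 0 rose. Of all genes 3.25% fell and 3.46% rose with OLR1 siRNA, and 4.64% fell and 2.67% rose with scramble siRNA. So few calls do not set the list apart. STEAP4, a metalloreductase, had log2 signals of 7.68, 7.53 and 7.85 in OLR1 siRNA cells with UVPAPC, against 8.41, 8.35 and 8.22 without. In scramble cells STEAP4 was at 7.21, 7.47 and 7.17 with UVPAPC, against 8.24, 8.07 and 8.11 without. The UVPAPC arrays all lay lower, by changes of -0.64 and -0.86 (limma adjusted p = 0.000415 and 2.94e-05). SLC11A2, or DMT1, which moves ferrous iron across membranes, fell with OLR1 siRNA (-0.29, limma adjusted p = 0.0382) and was at -0.21 with scramble siRNA (adjusted p = 0.136). The SLC11A2 call was lost without any of 6 arrays, namely the 3 untreated OLR1 siRNA arrays, OLR1 siRNA UVPAPC arrays 1 and 2 and scramble UVPAPC array 1 (-0.30 to -0.22, adjusted p = 0.0524 to 0.159). It was also lost over all table entries (adjusted p = 0.0829) and with the arrays of the comparison alone (adjusted p = 0.0666). NCOA4, the cargo receptor for ferritin breakdown, was at -0.07 and -0.22 and PCBP1, an iron chaperone, at -0.03 and -0.05, neither past the threshold.

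Heme synthesis gave 0 of 7 calls on UVPAPC. FECH, which inserts iron into the porphyrin, was at 0.36 with OLR1 siRNA and 0.34 with scramble siRNA (limma adjusted p = 0.0626 and 0.0721), and ALAS1, the first and rate-limiting enzyme outside red cells, at 0.17 and 0.13. Among 10 measured genes of heme transport and binding, 0 were called in any comparison, with the heme exporter FLVCR1 at 0.13 and 0.01 and ABCG2 at 0.08 and 0.04. Among 8 of iron export and systemic control, 0 were called, with HFE at -0.02 and -0.10. Of all genes 6.71% passed on UVPAPC with OLR1 siRNA and 7.31% with scramble siRNA. On OLR1 siRNA 12.5% passed in UVPAPC cells and 9.71% in untreated cells. At such shares, 0 calls in lists of 7 to 10 genes do not set these lists apart. The iron sensors ACO1 and FBXL5 were at 0.01 and -0.04 with OLR1 siRNA and 0.01 and -0.20 with scramble siRNA, neither past the threshold. Of 14 mitochondrial iron and iron-sulfur genes, the chaperone HSPA9 rose with OLR1 siRNA (0.28, limma adjusted p = 0.0171) and was at 0.12 with scramble siRNA. The HSPA9 call was lost without OLR1 siRNA untreated array 1 or 2 or OLR1 siRNA UVPAPC array 1 (0.25 to 0.28, adjusted p = 0.0618 to 0.0849).

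Other genes of the same lists changed with OLR1 siRNA. Of the 65, 4 rose and 2 fell in UVPAPC cells (median -0.02), and 1 rose and 5 fell in untreated cells (median -0.02). Both make 6 of 65, against 12.5% of all genes in UVPAPC cells and 9.71% in untreated cells, shares that do not exceed the background. CPOX, an enzyme of heme synthesis, fell in both, with changes of -0.37 in UVPAPC cells and -0.48 in untreated cells (limma adjusted p = 0.0169 and 0.00336). STEAP3, the endosomal ferrireductase that works with TFRC, fell in both, with changes of -0.38 and -0.53 (limma adjusted p = 0.00155 and 6.2e-05). NFE2L2 rose in both, by 0.28 and 0.26 (limma adjusted p = 0.0088 and 0.0172), and by 0.18 in UVPAPC cells after cyclic loess. These are the 3 pathway genes that passed under both treatments.

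Others passed under 1 treatment, and no difference between treatments passed. In untreated cells STEAP2, a further metalloreductase, and HSPA9 fell, with changes of -0.59 and -0.36 (limma adjusted p = 0.000873 and 0.00272). PPOX, which follows CPOX in heme synthesis, fell by 0.30 (limma adjusted p = 0.0246). PPOX was dim, with group means from 4.30 to 4.60, where a change may be hard to read. In UVPAPC cells STEAP4 rose by 0.41, NR1D2, a heme-binding receptor like NR1D1, by 0.31 and EIF2AK1, the heme-regulated kinase of translation, by 0.26 (limma adjusted p = 0.0112, 0.0291 and 0.0269). EIF2AK1 was at 0.16 after cyclic loess or repeated quantile scaling (adjusted p = 0.0951 and 0.0996). Leaving out scramble UVPAPC array 3 lost the calls for STEAP4 (0.35, adjusted p = 0.0589), NR1D2 (0.22, adjusted p = 0.13) and EIF2AK1 (0.19, adjusted p = 0.109). OLR1 siRNA UVPAPC array 3 did the same (adjusted p = 0.0566, 0.0856 and 0.074), and array 1 of that group ended the calls for NR1D2, EIF2AK1 and CPOX (adjusted p = 0.0741, 0.0963 and 0.0536). The CPOX call in UVPAPC cells was also lost without OLR1 siRNA UVPAPC array 2 (-0.30, adjusted p = 0.0618) or scramble UVPAPC array 2 (-0.33, adjusted p = 0.0578). PPOX was lost without scramble untreated array 2 (-0.20, adjusted p = 0.132) or any untreated OLR1 siRNA array (adjusted p = 0.0531 to 0.0732). Over all table entries the calls for PPOX, NR1D2 and EIF2AK1 were lost (adjusted p = 0.0561, 0.0662 and 0.0509), and with the arrays of the comparison alone those for PPOX and EIF2AK1 (adjusted p = 0.0525 and 0.073). NFE2L2 in untreated cells was lost without OLR1 siRNA untreated array 1 or scramble untreated array 2 or 3 (0.23 to 0.25, adjusted p = 0.0621 to 0.0707).

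Some markers of other cell types moved with the OLR1 siRNA beside these changes. Of the 8 macrophage and leukocyte markers, CD68 rose by 0.44 in UVPAPC cells and 0.40 in untreated cells, and the other 7 did not pass (list medians -0.00458 and 0.07). Of 5 endothelial markers, CDH5 rose by 0.50 and 0.65, and the list medians were -0.03 and -0.04, with KDR at -0.07 and -0.19. Of 4 melanocyte markers, MITF rose by 0.43 and 0.26, and the list medians were -0.21 and 0.03, with TYR at -0.26 and -0.21, MLANA at -0.24 and 0.01 and PMEL at -0.17 and 0.06. Those named beside CDH5 and MITF did not pass. The summed linear signal of the macrophage and leukocyte list, which is mostly that of CD68, ran from 1085 to 1182 in OLR1 siRNA cells with UVPAPC and from 1093 to 1187 without, against 813 to 921 in scramble cells with UVPAPC and 895 to 920 without. In OLR1 siRNA cells the same sum for the 11 sebocyte markers ran from 8205.9 to 8625.0 with UVPAPC and 8496.5 to 8869.6 without. In scramble cells it was higher, from 8863.5 to 9341.4 with UVPAPC and 9317.9 to 10240.2 without. Of these 11 markers 0 passed for OLR1 siRNA in UVPAPC or untreated cells (list medians -0.12 and -0.10). Of 6 erythroid markers, EPOR fell in UVPAPC cells, with a change of -0.36, and the other 5 did not pass (list median -0.17). The defining markers PTPRC and CD163 lay at percentiles 3.86 and 9.43, PECAM1 and VWF at 14.9 and 22.9, and TYR at 7.37. On UVPAPC the lipid droplet coat gene PLIN2 rose by 0.67 and 0.58 and the lipid regulator PPARG fell, with changes of -0.35 and -0.47, in OLR1 siRNA and scramble cells in turn. MUC1 fell by 0.34 with OLR1 siRNA, and MITF fell by 0.23 with scramble siRNA. In that scramble comparison the 4 melanocyte markers had a median of 0.11 and a highest value of 0.20. The 3 besides MITF did not pass. The part of these markers in the results above was not tested.

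The genes with profiles nearest to HMOX1 were found by the root mean square difference over the 12 arrays, each gene's mean subtracted. The nearest was NMRAL2P at 0.240, followed by ZFAND2A at 0.382, DNAJB4 at 0.442, SLC7A11 at 0.447, DNAJB1 at 0.460, DNAJA4 at 0.607, ARRDC3 at 0.694 and ACTRT3 at 0.756. The median gene was at 1.50, FTL at 1.15 and ABCB6 at 1.38, and the other 6 measured genes of heme and iron handling were between 1.46 and 1.58. All 8 nearest genes were chosen for likeness to HMOX1, so their rise with UVPAPC is a description. NMRAL2P had changes of 2.96 with OLR1 siRNA and 2.55 with scramble siRNA, and SLC7A11, the cystine and glutamate exchanger, had 2.58 and 2.20. ACTRT3, the least near, had 1.37 and 1.83. Among untreated cells OLR1 siRNA lowered SLC7A11 (-0.57, limma adjusted p = 0.000467) and DNAJB1 (-0.34, limma adjusted p = 0.0412). The DNAJB1 call was lost on leaving out any of 5 arrays (adjusted p = 0.0709 to 0.157). The rest of the nearest genes ran from -0.25 for ARRDC3 to 0.07 for ACTRT3 and did not pass. HMOX1, at 0.26, did not pass either.

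**Figure D4:**
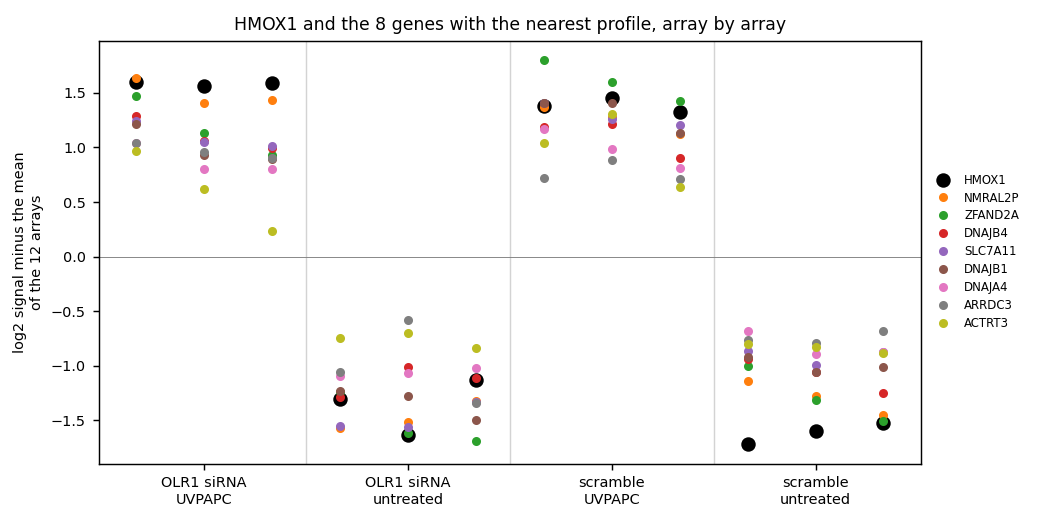
Log2 signal less each gene's mean over the 12 arrays (vertical axis, log2 units), by array in the 4 groups, for HMOX1 and the 8 genes with the smallest root mean square difference from it. NMRAL2P at 0.240 lies closest to HMOX1, and ACTRT3 at 0.756 is the farthest of the 8.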

How the data were processed

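SZ95 RNA was read on 12 HuGene arrays. Per the submitters' processing notes, the authors ran RMA (Expression Console 1.3.1.187), and its log2 signals were used as deposited. RMA compresses large changes. The sources used here do not give its settings, the siRNA sequences or how long UVPAPC was left on. Probe positions were not used.

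The platform annotation, which can be old, gave 1 symbol to 19460 of 33297 entries, several to 1754 and none to 12083. An Entrez number match to current symbols covered 19429 of the 19460 and changed 0. Where a gene had several probe sets (769 genes), the one of highest mean stood for it, which gave 18417 genes. Group means of all 12 arrays were fitted with limma 3.58.1 in R 4.3.3 (8 residual degrees of freedom), with empirical Bayes moderation and Benjamini-Hochberg adjustment over all genes, threshold 0.05. The fit was tested on simulated data. Precision is limited by the number of arrays.

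The 10 genes and the pathway and marker lists were chosen with earlier results of these data known. Named are OLR1, the 10 genes and the 8 genes nearest to HMOX1. Also named is every pathway gene past the threshold in any comparison, with up to 2 others a list. The search for the nearest genes left out small RNA, LOC, LINC and numbered open reading frame symbols. It also left out every symbol with a hyphen, antisense and readthrough genes among them. Markers are named where they passed or define a list. Percentiles rank a probe set's mean signal among all genes, and probe affinities also enter them. RefSeq windows run from 250 bases before to 50 after each start. Alternatives changed the scaling, filter, probe set rule, moderation, array weights, block and arrays.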

Additional observations from a re-analysis of the deposited data

How the results depend on the processing

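Results were recomputed under 23 alternatives, 22 for the difference of responses, where arrays of the comparison alone were not run. SLC40A1, PPOX, OLR1 and ACTRT3 had 1 fewer, being absent from genes above the median signal. The rise of HMOX1 (2.80 to 3.05 with OLR1 siRNA, 2.95 to 3.05 with scramble siRNA), that of FTL with UVPAPC and the fall of BLVRA with OLR1 siRNA kept their calls in all 23. No called value changed sign; 46 values that missed the threshold did. Under OLR1 siRNA in untreated cells, 5 of the measured heme and iron genes passed with a mean-variance trend, against 2. There were 4 among genes above the median signal and 1 with all table entries, where fewer or more genes tested change the adjustment. The trend setting tested the same genes as the main fit. The cause was not otherwise tested. Leaving out 1 array gave 868 (scramble untreated 1) to 1340 genes for UVPAPC in scramble cells, against 1347. It gave 1267 (OLR1 siRNA UVPAPC 1; 1372 without scramble UVPAPC 3) to 2254 for OLR1 siRNA in UVPAPC cells, against 2302, with 1 to 3 of the heme and iron genes. In untreated cells it gave 1101 (OLR1 siRNA untreated 2; 1113 and 1158 without scramble untreated 2 and 3) to 2055, against 1789, with 1 to 2. Deviations from group means correlated at -0.221 to 0.263 between same-numbered arrays, with 6 of 18 pairs over 0.1. Between different-numbered arrays they correlated at -0.260 to 0.266, with 8 of 36 over 0.1. All pairs among the arrays numbered 1 were positive, from 0.023 to 0.179. Numbers were not taken as pairs in the main fit. With the replicate block, 1220 and 1309 genes passed for UVPAPC in OLR1 siRNA and scramble cells, and 2309 and 1756 for OLR1 siRNA in UVPAPC and untreated cells, no call on the 9 genes changed, and that of SLC11A2 was lost (adjusted p = 0.0514). FTL may share signal with near-identical copies and SLC40A1 is dim, which limits both.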
